A study of Mus musculus with 6 samples.

Results

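Matrix proteases and their inhibitors were measured in epididymal white adipose tissue, the visceral fat depot beside the testis, of 3 patDp/+ mice and 3 wild type mice. They were chosen by gene symbol as the matrix metalloproteases (MMPs), the tissue inhibitors of metalloproteases (TIMPs) and the ADAMTS and ADAM metalloproteases. Cathepsins with a letter in their name were chosen too, except cathepsin S (Ctss). Ctss was left out by choice, not by the filter on signal. The array named 89 such genes with 141 probes. Of these, 65 are described here, because the scanner files marked a probe as well above background on 3 or more arrays, out of 19194 features tested in all. They are 4 of 4 Timp, 13 of 21 Mmp, 15 of 17 Adamts, 20 of 30 Adam and 13 of 17 Cts genes. All mice were males of 9 to 10 weeks on the C57BL/6 background, and no treatment is named. patDp/+ mice carry a duplication, passed on by the father, of the part of chromosome 7 corresponding to human 15q11-13. Wild type mice lack the duplication. The groups were taken from the sample titles, because the source name of all 6 samples reads as wild type. RNA of each mouse was hybridised to its own Agilent array with 1 dye. Values are log2 of the processed signal relative to the 75th percentile of the same array, so 0 stands for that percentile. Differences between the groups are patDp/+ minus wild type.

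Fat cells sit in a meshwork of collagens, proteoglycans and basement membrane that is cut and rebuilt as a depot grows. MMPs and ADAMTS enzymes cut this matrix outside the cell, ADAMs shed proteins from the cell surface, and cathepsins work mostly in lysosomes, with a few acting outside. TIMPs bind the active site of these metalloproteases and hold them in check, so the balance of enzyme and inhibitor is commonly used to describe matrix turnover in fat.

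Of the genes in the duplicated part, Snrpn was 2.28-fold, Ndn 2.12-fold, Mkrn3 1.87-fold and Ube3a 1.41-fold higher in patDp/+ fat, each without overlap of the groups. The lowest correlation between any pair of arrays across genes was 0.988. Negative control spots averaged a net signal of 36.7 on patDp/+ replicate 1 and of 29.0 to 31.6 on the remaining arrays. Adipocyte markers were bright, with a mean log2 value over 7 of 7 genes of 7.90, 7.75 and 7.70 in wild type and 7.68, 7.61 and 7.72 in patDp/+ fat. Of 10 epididymis markers only 4 were measured, and Lcn5, Lcn8, Crisp1, Defb2 and Cst11 were too dim for the filter. Of 65 measured proteases and inhibitors, 4 lie on chromosome 7, and 0 of these are inside the duplicated part (the nearest is 25.9 Mb away). In whole tissue, fewer cells of a type and less RNA per cell cannot be told apart.

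The proteases and inhibitors with the smallest p among the higher ones were 2 inhibitors, Timp4 and Timp1, the stromelysin gene Mmp3 and the ADAMTS genes Adamts19 and Adamts14, all higher in patDp/+ fat. The sperm-surface gene Adam3 was lower. These 6 had an unadjusted p under 0.05 in limma, and none passed Benjamini-Hochberg adjustment over all features. The share of all 19194 features that passed was 0%, and the smallest adjusted p among the 65 was 0.739, for Timp4. Thus 5 of 65 (7.69%) were higher at the unadjusted threshold, beside 2.68% of all features, and 1 of 65 (1.54%) was lower, beside 2.92%. All 3 patDp/+ arrays lay above all 3 wild type arrays for 8 of 65 (12.3%), beside 5.23% of all features. The reverse held for 1 of 65, beside 5.87%. The difference was above 0 for 40 of 65 (61.5%), beside 47.3% of all features, and its median was 0.07, beside -0.01 over all features. With another background correction, normexp, 47 of 65 and 59.7% of all features were above 0. At the unadjusted threshold, 514 features were higher and 561 lower, but 528 and 303 with normexp.

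**Figure D1:**
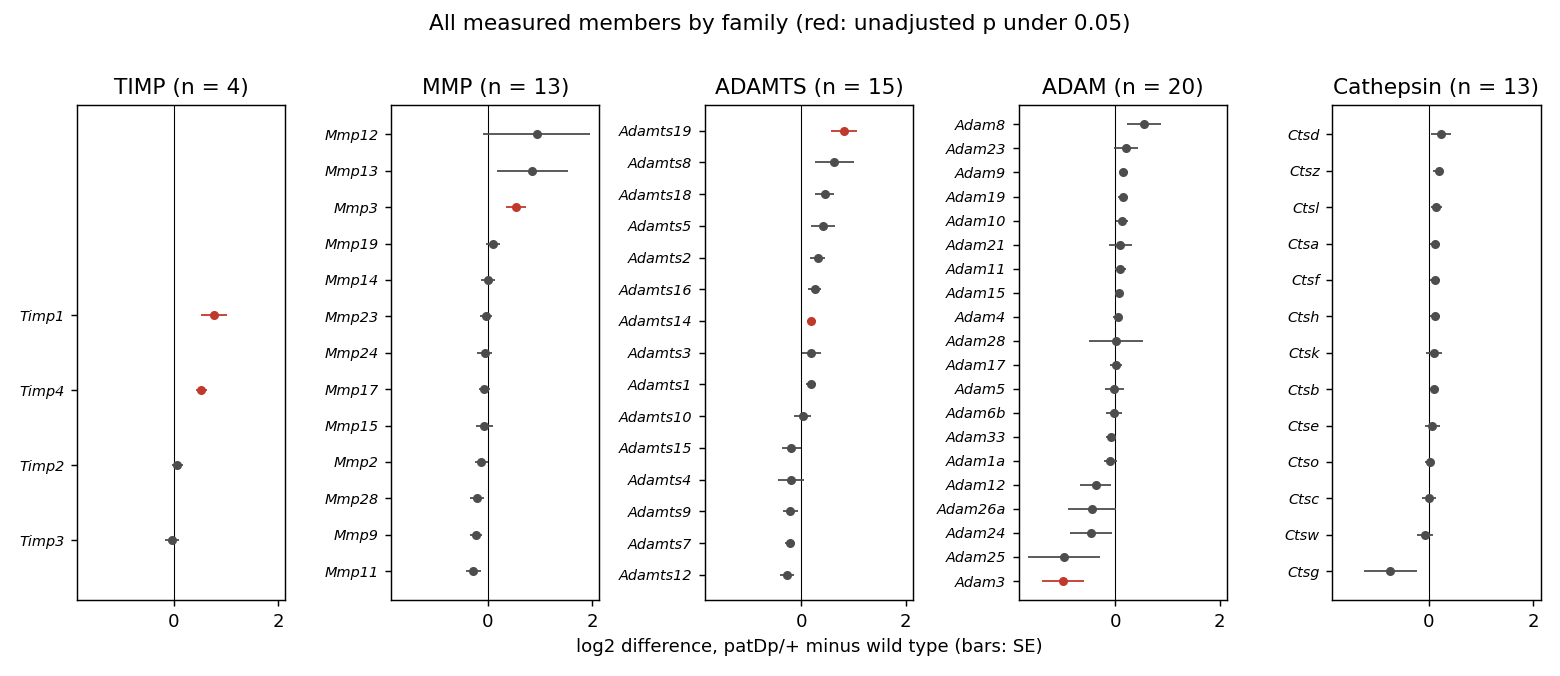
Log2 difference, patDp/+ minus wild type, of the 65 measured proteases and inhibitors, by family. Points are limma estimates from 3 arrays a group, bars are standard errors and red points have an unadjusted p under 0.05. Among these red points Adam3 alone lies below 0, and Mmp12 has the widest bars of the Mmp genes.

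The inhibitors were split within the family. Timp4 and Timp1 were higher in patDp/+ fat, while Timp2 and Timp3 differed by less than their standard errors. Timp4, an inhibitor known for its high expression in heart and fat, had log2 values of 4.51, 4.82 and 4.56 in wild type and 5.23, 5.18 and 5.06 in patDp/+ fat. The lowest patDp/+ array lay above the highest wild type array. For Timp4 this gave a difference of 0.52 ± 0.11 (SE, unadjusted p = 0.00267), a 1.44-fold higher level with an adjusted p of 0.739. Timp1, the secreted inhibitor that rises with inflammation and tissue injury in many organs, had log2 values of 0.80, 0.75 and 0.83 in wild type and 1.69, 1.98 and 1.00 in patDp/+ fat. The wild type arrays lay close together, and patDp/+ replicate 3 lay far below the other 2 of its group but still above every wild type array. Timp1 thus had a difference of 0.76 ± 0.24 (SE, unadjusted p = 0.0198), or 1.70-fold. Its p was 0.0535 with normexp, 0.0502 without wild type replicate 1, 0.0539 without wild type replicate 2 and 0.058 when patDp/+ replicate 1 was left out. Another probe of Timp1 gave a difference of 0.92. Timp2, which also takes part in the activation of pro-MMP2, had log2 values of 7.03, 6.83 and 6.85 in wild type and 7.13, 6.94 and 6.85 in patDp/+ fat, and the groups overlapped. The difference of Timp2 was 0.069 ± 0.11 (SE, unadjusted p = 0.539), and -0.08 with normexp. Timp3, the inhibitor that stays bound to the matrix and also blocks ADAM17, had log2 values of 4.78, 4.41 and 4.39 in wild type and 4.54, 4.56 and 4.38 in patDp/+ fat. For Timp3 this gave a difference of -0.035 ± 0.13 (SE, unadjusted p = 0.793), again with overlapping groups.

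**Figure D2:**
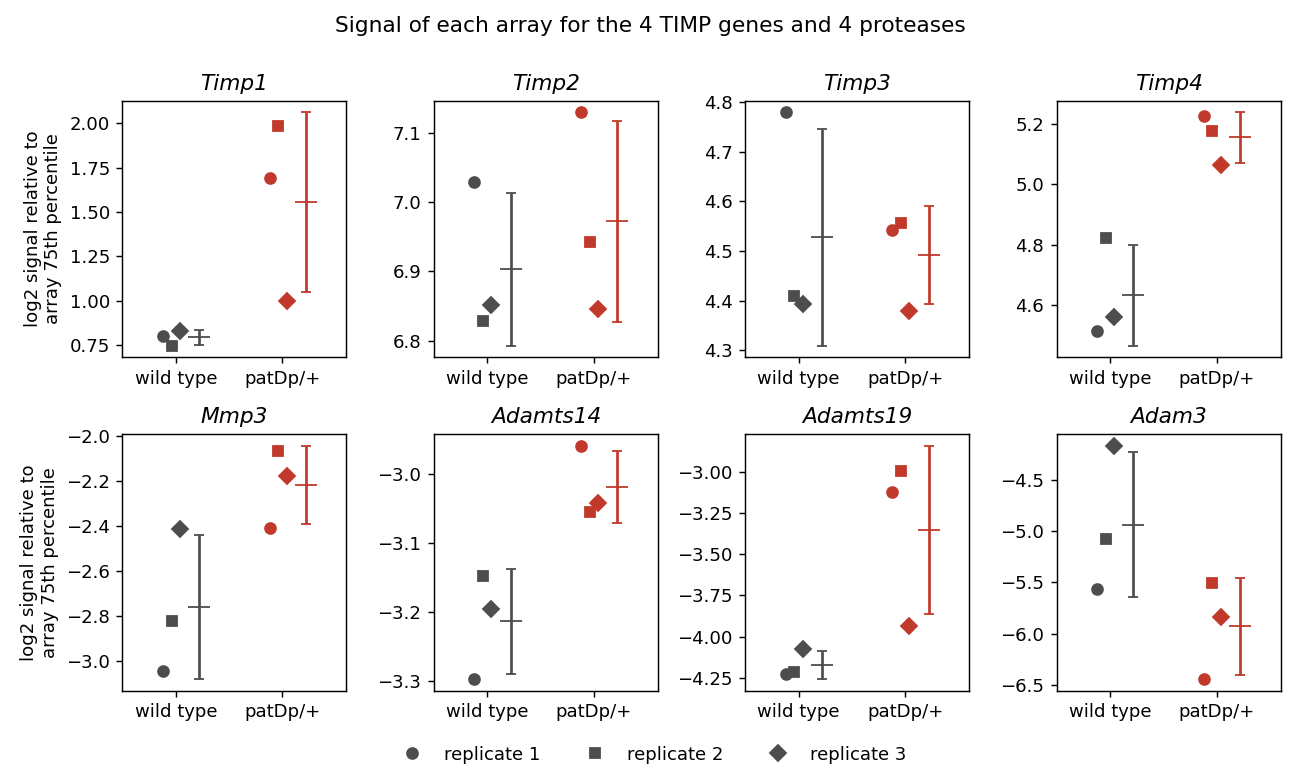
Log2 signal relative to the 75th percentile of each array for Timp1, Timp2, Timp3, Timp4, Mmp3, Adamts14, Adamts19 and Adam3. Circles, squares and diamonds are replicates 1, 2 and 3 of each group, and lines with bars are the mean ± SD of 3 arrays. Timp4 is separated in all replicates, while in Timp1 and Adamts19 patDp/+ replicate 3 sits close to the wild type arrays.

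Promoter windows are shown for Timp1 and Timp4, the 2 inhibitors at the unadjusted threshold. Windows of Mmp3 and Mmp13, both in the Mmp cluster of chromosome 9, are shown as well. Each runs from 250 bases before to 50 bases after the start of transcription, 5′ to 3′ on the strand of the gene, and comes from RefSeq on the GRCm38.p6 build. Capitals mark a match to TGANTCA, the usual binding sequence of AP-1, the Fos and Jun transcription factor, or in Timp1 to the variant TGAGTAA. That variant was added after the Timp1 window had been read.
Timp1: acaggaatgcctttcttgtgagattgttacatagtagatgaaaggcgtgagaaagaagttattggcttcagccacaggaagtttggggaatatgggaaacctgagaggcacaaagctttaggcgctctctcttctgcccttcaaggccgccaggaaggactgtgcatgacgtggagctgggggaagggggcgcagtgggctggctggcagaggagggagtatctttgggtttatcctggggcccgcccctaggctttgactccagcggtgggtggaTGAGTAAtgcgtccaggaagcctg
Timp4: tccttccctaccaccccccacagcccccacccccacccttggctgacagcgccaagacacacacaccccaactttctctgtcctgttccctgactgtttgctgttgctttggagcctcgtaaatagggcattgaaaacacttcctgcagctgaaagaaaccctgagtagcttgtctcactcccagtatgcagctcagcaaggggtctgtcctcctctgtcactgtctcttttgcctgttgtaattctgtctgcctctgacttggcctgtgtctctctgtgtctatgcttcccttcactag
Mmp3: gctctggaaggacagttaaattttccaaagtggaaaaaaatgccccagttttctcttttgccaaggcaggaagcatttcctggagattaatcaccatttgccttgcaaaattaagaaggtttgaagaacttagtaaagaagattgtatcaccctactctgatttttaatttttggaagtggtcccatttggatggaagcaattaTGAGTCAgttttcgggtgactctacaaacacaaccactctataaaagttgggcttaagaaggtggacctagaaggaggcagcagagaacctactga
Mmp13: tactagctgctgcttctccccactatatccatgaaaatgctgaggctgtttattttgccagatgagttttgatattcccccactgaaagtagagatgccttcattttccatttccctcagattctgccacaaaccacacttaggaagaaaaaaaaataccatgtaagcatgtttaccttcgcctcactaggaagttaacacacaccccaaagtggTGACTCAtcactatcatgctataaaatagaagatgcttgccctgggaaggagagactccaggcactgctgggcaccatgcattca
The windows are chrX:20869916-20870215 on the plus strand for Timp1, chr6:115252156-115252455 on the minus strand for Timp4, chr9:7445572-7445871 on the plus strand for Mmp3 and chr9:7272264-7272563 on the plus strand for Mmp13.

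In the Timp1 window TGAGTAA began 27 bases after the start, and in Mmp3 TGAGTCA began 46 bases before it. Mmp13 had TGACTCA 35 bases before its start, and the Timp4 window held neither motif. Both strands were searched, and no run of 7 bases can match both motifs. TGANTCA occurred in 7.81% of 32851 mouse promoter windows of this length and TGAGTAA in 2.68%. Of the 65 measured genes 39 had a window, and TGANTCA was found for 5 of them, namely Mmp3, Mmp12, Mmp13, Adam19 and Adam25. In the main values these 5 did not share a direction, but only Adam25 was negative. The difference of Adam25 was -0.97 ± 0.69 (SE, unadjusted p = 0.208), and 0.31 with normexp. A match is a description of letters, and no binding was measured.

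Among the 13 measured MMPs, Mmp3 alone had a difference at the unadjusted threshold. The difference was above 0 for 5 of 13 (38.5%), near the 47.3% of all features, with a median of -0.05. With normexp the median was 0.10, beside 0.07 over all features. Mmp3, the stromelysin that cuts proteoglycans and activates other pro-MMPs, had log2 values of -3.05, -2.82 and -2.41 in wild type and -2.41, -2.06 and -2.18 in patDp/+ fat. All patDp/+ arrays were above all wild type arrays, but wild type replicate 3 and patDp/+ replicate 1 were nearly equal. Mmp3 thus had a difference of 0.54 ± 0.18 (SE, unadjusted p = 0.0235), or 1.46-fold, but 0.33 in the authors' deposited table. Its p was 0.0654 without wild type replicate 1, 0.0655 without wild type replicate 2, 0.0753 without patDp/+ replicate 2 and 0.0607 without patDp/+ replicate 3. Mmp12, the metalloelastase of macrophages, had log2 values of -4.79, -4.65 and -1.49 in wild type and -1.41, -3.57 and -3.13 in patDp/+ fat. Its wild type replicate 3 and patDp/+ replicate 1 were far above the other arrays, so the groups overlapped widely. The difference of Mmp12 was 0.94 ± 1.02 (SE, unadjusted p = 0.392), and it was 2.01 without wild type replicate 3, with an unadjusted p under 0.05. That p was under 0.05 in only 1 of 14 alternatives, and leaving out another array gave a difference as low as 0.29. Mmp13, the main collagenase of mice, which was well above background on 4 arrays, had log2 values of -5.30, -4.85 and -7.47 in wild type and -4.82, -4.69 and -5.53 in patDp/+ fat. Wild type replicate 3 was far below the rest, and the groups overlapped because patDp/+ replicate 3 was below wild type replicates 1 and 2. For Mmp13 this gave a difference of 0.86 ± 0.69 (SE, unadjusted p = 0.256), but 0.13 in the authors' deposited table and 0.062 without wild type replicate 3. These 3 are the measured ones of the 8 genes that the array named in the chromosome 9 cluster. The others, Mmp1a, Mmp7, Mmp8, Mmp10 and Mmp20, were too dim.

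The gelatinases and the other MMPs did not pass the unadjusted threshold. Mmp2, the gelatinase made by stromal cells, had log2 values of 1.82, 1.51 and 1.55 in wild type and 1.57, 1.60 and 1.34 in patDp/+ fat, with overlapping groups. Mmp2 thus had a difference of -0.12 ± 0.12 (SE, unadjusted p = 0.354). Mmp9, the gelatinase of leukocytes, had log2 values of 0.047, 0.31 and 0.0038 in wild type and -0.23, 0.0072 and -0.055 in patDp/+ fat. The groups of Mmp9 overlapped narrowly. The difference of Mmp9 was -0.21 ± 0.12 (SE, unadjusted p = 0.114). Mmp11, stromelysin 3, an enzyme linked to the negative control of fat cell formation, had log2 values of 1.27, 1.26 and 0.81 in wild type and 0.84, 0.75 and 0.93 in patDp/+ fat. For Mmp11 this gave a difference of -0.27 ± 0.15 (SE, unadjusted p = 0.109), and the groups overlapped. Without wild type replicate 3 it was -0.43, with an unadjusted p of 0.00648, the only 1 of 14 alternatives under 0.05. Mmp14, the membrane enzyme that activates pro-MMP2 and cuts collagen around cells, had log2 values of 2.99, 2.64 and 2.78 in wild type and 2.85, 2.99 and 2.63 in patDp/+ fat. Mmp14 thus had a difference of 0.013 ± 0.13 (SE, unadjusted p = 0.925), and no array of Mmp14 stood apart. Mmp19, a broadly expressed MMP, had log2 values of -1.20, -0.81 and -1.01 in wild type and -0.75, -0.96 and -1.00 in patDp/+ fat, with overlapping groups. The difference of Mmp19 was 0.10 ± 0.13 (SE, unadjusted p = 0.454). The remaining measured Mmp genes, Mmp15, Mmp17, Mmp23, Mmp24 and Mmp28, had differences from -0.21 (Mmp28) to -0.03 (Mmp23). Of these Mmp24 and Mmp28 had another probe with a difference of the opposite sign.

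The procollagen N-proteinases, which remove the amino-terminal propeptide so that collagen can form fibrils, had differences above 0 for 3 of 3 genes, of which 1, Adamts14, was under the unadjusted threshold. Over all features 47.3% were above 0 and 2.68% were higher at that threshold. On slide 3 Adamts2 was at -0.0077 and Adamts3 at -0.14. Adamts2, the enzyme for type I procollagen, had log2 values of 4.98, 4.77 and 4.93 in wild type and 5.33, 5.36 and 4.92 in patDp/+ fat. Its patDp/+ replicates 1 and 2 were above every wild type array, and replicate 3 was not. For Adamts2 this gave a difference of 0.31 ± 0.14 (SE, unadjusted p = 0.0678). Adamts3 had log2 values of -3.75, -3.47 and -3.67 in wild type and -3.32, -3.19 and -3.81 in patDp/+ fat, with overlapping groups. Adamts3 thus had a difference of 0.19 ± 0.18 (SE, unadjusted p = 0.319). Adamts14, the remaining enzyme of this kind, had log2 values of -3.30, -3.15 and -3.20 in wild type and -2.96, -3.06 and -3.04 in patDp/+ fat. The patDp/+ arrays were all above the wild type arrays, by a narrow gap. The difference of Adamts14 was 0.19 ± 0.077 (SE, unadjusted p = 0.0448), or 1.14-fold, and this p was under 0.05 in 4 of 14 alternatives.

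Among the other ADAMTS genes Adamts19 had the largest difference. Of 15 genes in the family 2 (13.3%) were higher at the unadjusted threshold and 0 lower, beside 2.68% and 2.92% of all features. The difference was above 0 for 10 of 15 (66.7%), beside 47.3% of all features. Its median was 0.19 (0.08 in the deposited table), beside -0.01 over all features. Within slides 1, 2 and 3 the family median was 0.34, 0.28 and -0.14. Adamts19, an enzyme whose substrates are little known, had log2 values of -4.23, -4.21 and -4.08 in wild type and -3.12, -3.00 and -3.93 in patDp/+ fat. Replicates 1 and 2 of patDp/+ stood well above the wild type arrays, and replicate 3 was just above them. For Adamts19 this gave a difference of 0.82 ± 0.25 (SE, unadjusted p = 0.0157), or 1.77-fold. It was 0.37 in the authors' deposited table, and without patDp/+ replicate 1 its p was 0.0503. The other kept probe of Adamts19 gave 0.96, but was well above background on only 3 arrays. Its values were -5.56, -5.57 and -5.39 in wild type and -4.09, -4.28 and -5.26 in patDp/+ fat. As it may have passed the filter through the patDp/+ arrays alone, it is not a separate check of the direction. A probe of Adamts19 with 0 arrays well above background, which was not kept, gave 0.05. Adamts7, which cuts the cartilage protein COMP, had log2 values of -1.19, -1.18 and -1.35 in wild type and -1.35, -1.53 and -1.49 in patDp/+ fat. It was the 1 gene of the 65 whose patDp/+ arrays all lay below the wild type arrays, with wild type replicate 3 and patDp/+ replicate 1 nearly equal. Adamts7 thus had a difference of -0.22 ± 0.089 (SE, unadjusted p = 0.051), but -0.062 with normexp. Its p was 0.0125 with the mean of probes, 0.0473 with the filter on all 6 arrays, 0.0379 when wild type replicate 3 was left out and 0.0407 when patDp/+ replicate 1 was. Adamts12, a close relative of Adamts7, had log2 values of 1.50, 1.16 and 1.58 in wild type and 1.10, 1.06 and 1.25 in patDp/+ fat. The patDp/+ arrays were low, but wild type replicate 2 lay among them. The difference of Adamts12 was -0.28 ± 0.13 (SE, unadjusted p = 0.0756), all 3 of its probes were below 0, and its unadjusted p was 0.0093 when wild type replicate 2 was left out and 0.0472 with a slide block. Adamts18, another secreted member, had log2 values of -5.43, -5.41 and -5.04 in wild type and -4.61, -4.74 and -5.20 in patDp/+ fat. The patDp/+ replicates 1 and 2 were above every wild type array, and replicate 3 was not. For Adamts18 this gave a difference of 0.45 ± 0.19 (SE, unadjusted p = 0.0549), but 0.081 in the deposited table. Its p was 0.0188 with quantile normalization, 0.0309 when wild type replicate 3 was left out and 0.00813 when patDp/+ replicate 3 was. These were the 3 of 13 alternatives under 0.05. The probe was dim, well above background on 2 wild type and 2 patDp/+ arrays.

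The proteoglycan-cleaving members, which cut versican and aggrecan, were split, with 3 of 6 above 0, near the 47.3% of all features. Adamts1, a versican-cleaving enzyme, had log2 values of 1.43, 1.36 and 1.22 in wild type and 1.49, 1.62 and 1.45 in patDp/+ fat, and the groups did not overlap. Adamts1 thus had a difference of 0.18 ± 0.090 (SE, unadjusted p = 0.0862). Adamts5, the main aggrecanase of mice, had log2 values of 4.22, 3.96 and 4.36 in wild type and 4.98, 4.68 and 4.12 in patDp/+ fat. Replicates 1 and 2 of patDp/+ were above every wild type array, and replicate 3 was between wild type replicates 2 and 1. The difference of Adamts5 was 0.41 ± 0.23 (SE, unadjusted p = 0.123). Adamts4, the related aggrecanase, had log2 values of -2.77, -2.35 and -1.99 in wild type and -2.15, -2.77 and -2.77 in patDp/+ fat, with overlapping groups. For Adamts4 this gave a difference of -0.20 ± 0.26 (SE, unadjusted p = 0.465), and 0.20 with normexp. Adamts8, a related enzyme that also blocks blood vessel growth, had log2 values of -3.97, -3.75 and -2.53 in wild type and -2.76, -2.67 and -2.93 in patDp/+ fat. Wild type replicates 1 and 2 were low, and wild type replicate 3 was above every patDp/+ array. Adamts8 thus had a difference of 0.63 ± 0.37 (SE, unadjusted p = 0.139), but 0.30 in the deposited table. Without wild type replicate 3, the array above every patDp/+ array, it was 1.08, with an unadjusted p of 0.000316. Without wild type replicate 1 it was 0.36, and its p was under 0.05 in only 1 of 14 alternatives. The remaining 4 Adamts genes (Adamts9, Adamts10, Adamts15 and Adamts16) had differences from -0.21 (Adamts9) to 0.25 (Adamts16).

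ADAM genes were centred near 0, with 11 of 20 above 0 and a median of 0.02 (18 of 20 and 0.41 with normexp, and 9 of 20 and -0.02 in the deposited table). Over all features 47.3% were above 0 in the main values, with a median of -0.01, and 59.7% with normexp, with a median of 0.07. Of 9 sheddases of body tissues 0 passed the unadjusted threshold, and 7 were above 0. Adam8, a sheddase of leukocytes, had log2 values of 1.46, 1.38 and 1.93 in wild type and 2.77, 2.10 and 1.56 in patDp/+ fat. Its patDp/+ replicates 1 and 2 were above every wild type array, and replicate 3 was not. The difference of Adam8 was 0.55 ± 0.32 (SE, unadjusted p = 0.134). Adam9, a widely expressed sheddase, had log2 values of 3.57, 3.50 and 3.53 in wild type and 3.74, 3.76 and 3.59 in patDp/+ fat, and the groups did not overlap. For Adam9 this gave a difference of 0.16 ± 0.080 (SE, unadjusted p = 0.089), but 0.038 with normexp. Adam10, the main sheddase of Notch receptors, had log2 values of -2.56, -2.88 and -2.60 in wild type and -2.68, -2.45 and -2.50 in patDp/+ fat. Wild type replicate 2 was the lowest array of Adam10, and the groups overlapped. Adam10 thus had a difference of 0.13 ± 0.12 (SE, unadjusted p = 0.295). Adam17, the enzyme that releases TNF, had log2 values of 1.00, 0.86 and 0.86 in wild type and 1.14, 0.78 and 0.85 in patDp/+ fat. The difference of Adam17 was 0.021 ± 0.12 (SE, unadjusted p = 0.864), its other probe gave -0.02 and the groups overlapped. Adam12, an ADAM of fat cell precursors and growing muscle, had log2 values of -4.33, -3.78 and -4.01 in wild type and -4.22, -5.03 and -4.00 in patDp/+ fat. For Adam12 this gave a difference of -0.37 ± 0.29 (SE, unadjusted p = 0.245), with overlapping groups, and 0.37 with normexp. The other sheddases, Adam15, Adam19, Adam28 and Adam33, had differences from -0.080 (Adam33) to 0.15 (Adam19), and Adam11 and Adam23, which lack protease activity, had 0.10 and 0.21.

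Genes of the male reproductive tract made up 18 of the 30 named Adam genes, and 9 of these passed the filter. Of the 9, 2 were above 0 in the main values, beside 47.3% of all features. With normexp 9 of 9 were above 0, beside 59.7%. Adam3, a sperm protein needed for binding to the egg coat, had log2 values of -5.56, -5.08 and -4.16 in wild type and -6.44, -5.51 and -5.84 in patDp/+ fat. It was well above background on 2 wild type arrays and 1 patDp/+ array. The patDp/+ arrays were low, yet replicate 2 lay just above wild type replicate 1, so the groups overlapped. Adam3 thus had a difference of -0.99 ± 0.40 (SE, unadjusted p = 0.0476). The difference was 0.49 with normexp, which turns its direction, and -0.23 in the deposited table. Adam25, another testis gene, had log2 values of -5.16, -5.58 and -3.14 in wild type and -4.80, -6.00 and -5.99 in patDp/+ fat, and wild type replicate 3 stood far above the other arrays. The difference of Adam25 was -0.97 ± 0.69 (SE, unadjusted p = 0.208), and 0.31 with normexp. The other 7 of these genes had differences from -0.46 (Adam24) to 0.10 (Adam21), and from 0.17 (Adam1a) to 0.71 (Adam21) with normexp, so the direction of most of them turns. Adam24 was at -0.94 without wild type replicate 1, with an unadjusted p of 0.00171, the only 1 of 14 alternatives under 0.05. Epididymis markers were also lower, with mean log2 values of -4.61, -4.60 and -4.64 in wild type and -4.68, -5.28 and -5.54 in patDp/+ fat. Of these markers 4 of 4 were lower, 1 of them under the unadjusted threshold. Their part in the values of Adam3 was not tested. Testis germ cell markers (4 of 7 measured) were at -3.93, -3.93 and -3.83 in wild type and -4.17, -3.93 and -4.03 in patDp/+ fat.

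Of 13 measured cathepsins (Ctss not among them) 0 passed the unadjusted threshold. The difference was above 0 for 11 of 13, beside 47.3% of all features, with a median of 0.10, beside -0.01. With normexp it was above 0 for 9 of 13, beside 59.7%, with a median of 0.03, beside 0.07 over all features. Within slides 1, 2 and 3 the family median was 0.16, -0.0043 and 0.13. Ctsz, a carboxypeptidase of lysosomes, had log2 values of 4.42, 4.75 and 4.58 in wild type and 4.78, 4.76 and 4.77 in patDp/+ fat, and the patDp/+ arrays were all just above the wild type arrays. For Ctsz this gave a difference of 0.19 ± 0.10 (SE, unadjusted p = 0.109), and without wild type replicate 2 it was 0.27, with an unadjusted p of 0.0304. That was the only 1 of 14 alternatives under 0.05, and the lowest difference among them was 0.028. Ctsb, a broadly acting cysteine protease, had log2 values of 6.78, 6.91 and 6.87 in wild type and 6.95, 6.87 and 7.05 in patDp/+ fat, with overlapping groups. Ctsb thus had a difference of 0.10 ± 0.082 (SE, unadjusted p = 0.25). Ctsd, the main aspartic protease of lysosomes, had log2 values of 6.32, 6.97 and 6.78 in wild type and 6.81, 6.80 and 7.17 in patDp/+ fat. Wild type replicate 1 was the lowest array of Ctsd and patDp/+ replicate 3 the highest, with overlap between them. The difference of Ctsd was 0.23 ± 0.19 (SE, unadjusted p = 0.272). Ctsk, the collagen-cutting cathepsin of osteoclasts, had log2 values of 0.17, 0.035 and 0.36 in wild type and 0.57, 0.27 and 0.048 in patDp/+ fat. patDp/+ replicate 1 was the highest array, and the others overlapped. For Ctsk this gave a difference of 0.10 ± 0.16 (SE, unadjusted p = 0.53). Ctsl, a cysteine protease that can also degrade fibronectin, had log2 values of 6.23, 6.57 and 6.45 in wild type and 6.50, 6.56 and 6.61 in patDp/+ fat. Ctsl thus had a difference of 0.14 ± 0.11 (SE, unadjusted p = 0.228), and the groups overlapped. Ctsg, a serine protease of neutrophil and mast cell granules, had log2 values of -2.68, -3.11 and -4.54 in wild type and -3.68, -4.36 and -4.49 in patDp/+ fat. Wild type replicates 1 and 2 were the highest arrays, and wild type replicate 3 the lowest. The difference of Ctsg was -0.73 ± 0.50 (SE, unadjusted p = 0.191), the largest in the family, but 0.13 with normexp. Without wild type replicate 3 it was -1.28, with an unadjusted p of 0.00595, the only 1 of 14 alternatives under 0.05. Mast cell markers were at -1.55, -1.13 and -0.79 in wild type and -0.93, -1.46 and -1.66 in patDp/+ fat, with 6 of 6 differences below 0. Neutrophil markers (6 of 8 measured, with Ngp and Ly6g too dim) were at -2.20, -2.72 and -2.79 in wild type and -2.52, -2.78 and -2.81 in patDp/+ fat. The part of these cells in Ctsg was not tested. The remaining 7 cathepsins (Ctsa, Ctsc, Ctse, Ctsf, Ctsh, Ctso and Ctsw) had differences from -0.077 (Ctsw) to 0.12 (Ctsa).

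Each slide held 1 array of each group with the same replicate number, which gave 3 differences within slides. The median over the 65 genes was 0.11 on slide 1, 0.092 on slide 2 and -0.0086 on slide 3. Timp4 differed by 0.71, 0.35 and 0.50 on slides 1, 2 and 3, all of the same sign. Timp1 differed by 0.89, 1.24 and 0.17, and Adamts19 by 1.10, 1.22 and 0.14. Slide 3 thus gave a much smaller difference than the others for both. Mmp3 differed by 0.64, 0.76 and 0.24. Adam8 (1.31, 0.71 and -0.36), Adamts5 (0.76, 0.72 and -0.23) and Mmp12 (3.38, 1.07 and -1.64) were higher on slides 1 and 2 and lower on slide 3. The same held for Adamts8 (1.21, 1.08 and -0.40) and, narrowly on slide 3, for Adamts2 (0.35, 0.59 and -0.0077).

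**Figure D3:**
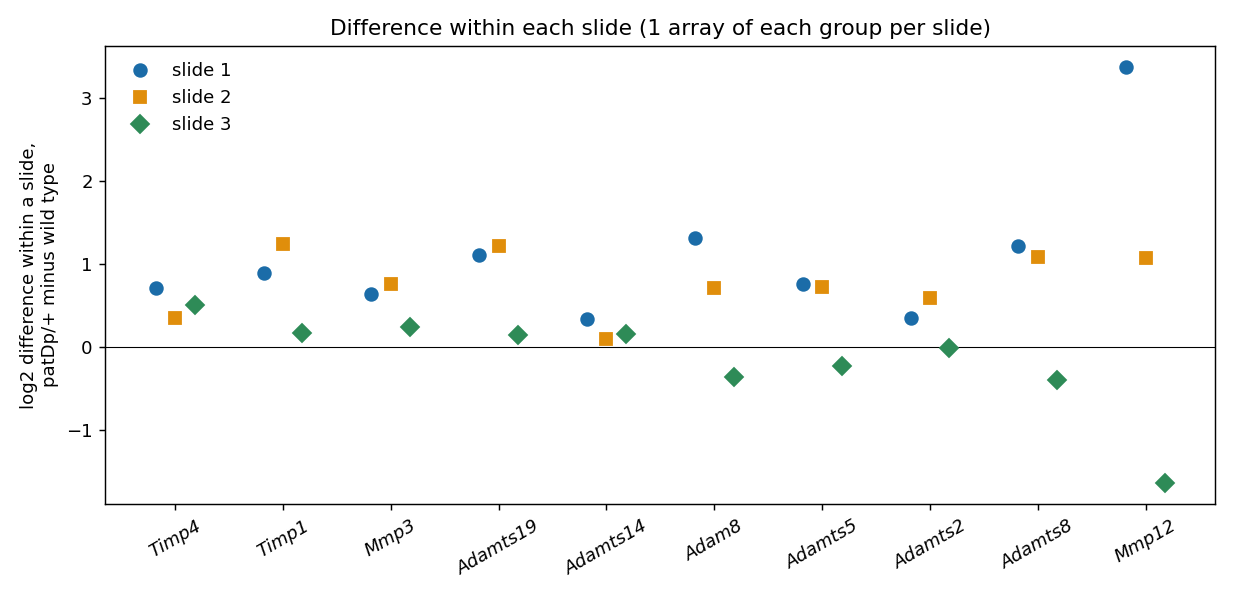
Log2 difference, patDp/+ minus wild type, within each of the 3 slides for 10 proteases and inhibitors. Each point is 1 pair of arrays, and there is no error bar because a slide holds 1 array of each group. Timp4 is above 0 on all slides, while Adam8, Adamts2, Adamts5, Adamts8 and Mmp12 lie below 0 on slide 3, Adamts2 only narrowly.

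Macrophage markers also differed between the patDp/+ arrays. Their mean over 9 of 9 genes was 2.16, 2.08 and 2.36 in wild type and 2.71, 2.43 and 2.13 in patDp/+ fat, and 8 of 9 had a positive difference. patDp/+ replicate 1 was thus the highest and patDp/+ replicate 3 lay within the wild type range. T and NK cell markers (8 of 9 measured) were at -2.60, -2.76 and -2.87 in wild type and -2.02, -2.28 and -2.34 in patDp/+ fat, without overlap. Of these, 8 of 8 had a positive difference and 3 were under the unadjusted threshold. B cell markers (5 of 6 measured, with Pax5 too dim) were at -2.18, -2.46 and -1.87 in wild type and -3.52, -2.96 and -2.27 in patDp/+ fat, with 5 of 5 differences below 0 and 2 under the unadjusted threshold. Endothelial markers were at 2.45, 2.42 and 2.27 in wild type and 2.14, 2.18 and 2.32 in patDp/+ fat, with 6 of 6 below 0 and 1 under the threshold. Of the adipocyte markers given above 7 of 7 were below 0 and 0 under the threshold. Fibroblast and stromal markers were at 4.51, 4.44 and 4.50 in wild type and 4.70, 4.58 and 4.38 in patDp/+ fat. The part of these cell types in the values of Timp1, Mmp12, Adam8 and Adamts5 was not tested. Without patDp/+ replicate 3, 11 of 65 were past the unadjusted threshold, namely Timp1, Timp4, Adam8, Adam9, Adamts2, Adamts3, Adamts5, Adamts18 and Adamts19 as higher and Adamts9 and Mmp28 as lower, beside 1788 of all 19194 features.

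Other genes of the same processes were taken from fixed lists, and none passed adjustment. Of 15 measured matrix processing enzymes 3 were higher at the unadjusted threshold and 0 lower, with a list median of 0.08. Over all features the shares were 2.68% and 2.92% and the median -0.01, which holds for each list that follows. They were Pcolce2, an enhancer of procollagen C-proteinase (0.42 ± 0.12, SE), Adamtsl2, an ADAMTS-like protein without protease activity (1.00 ± 0.34, SE), and Htra1, a secreted serine protease (0.19 ± 0.071, SE). Bmp1, the procollagen C-proteinase itself, had a difference of 0.26 ± 0.12 (SE) without overlap of the groups. Of 15 other protease inhibitors 1 was higher, the serpin Serpina3n (0.36 ± 0.15, SE), and 2 lower, the Wnt-binding protein Sfrp1 (-0.69 ± 0.12, SE) and Spint1 (-0.47 ± 0.13, SE, but 0.42 with normexp). Their median was 0.04. Of 18 activators, partners and substrates Fn1, the gene of fibronectin, was higher (0.52 ± 0.18, SE) and Pcsk6, a proprotein convertase, was lower (-0.46 ± 0.080, SE), with a median of 0.05. Of 18 lysosome genes 1 was higher, Lgmn, which processes cathepsins to their mature forms (0.42 ± 0.12, SE), and the median was 0.11. The plasminogen system had 11 measured genes, a median of 0.01, and 0 past the threshold in either direction. Its 2 genes with the smallest p were Plat (0.21 ± 0.10, SE) and Serpine2 (0.22 ± 0.15, SE).

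Timp4 had an unadjusted p under 0.05 in 14 of 14 alternatives, with differences from 0.42 to 0.62. Adamts19 kept it in 13 of 14, Timp1 in 10 of 14 with differences from 0.55 to 1.04, and Mmp3 in 10 of 14. For Adam3 it held in 5 of 13. These alternatives are not independent, because the slide block and the replicate block are the same fit. As Timp4 has 1 kept probe, the other probe filters and the mean of probes keep its main difference. Of 26 genes with more than 1 kept probe, 21 had the same sign for all probes. The 5 others were Adam11, Adam17, Adam23, Mmp24 and Mmp28.

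**Figure D4:**
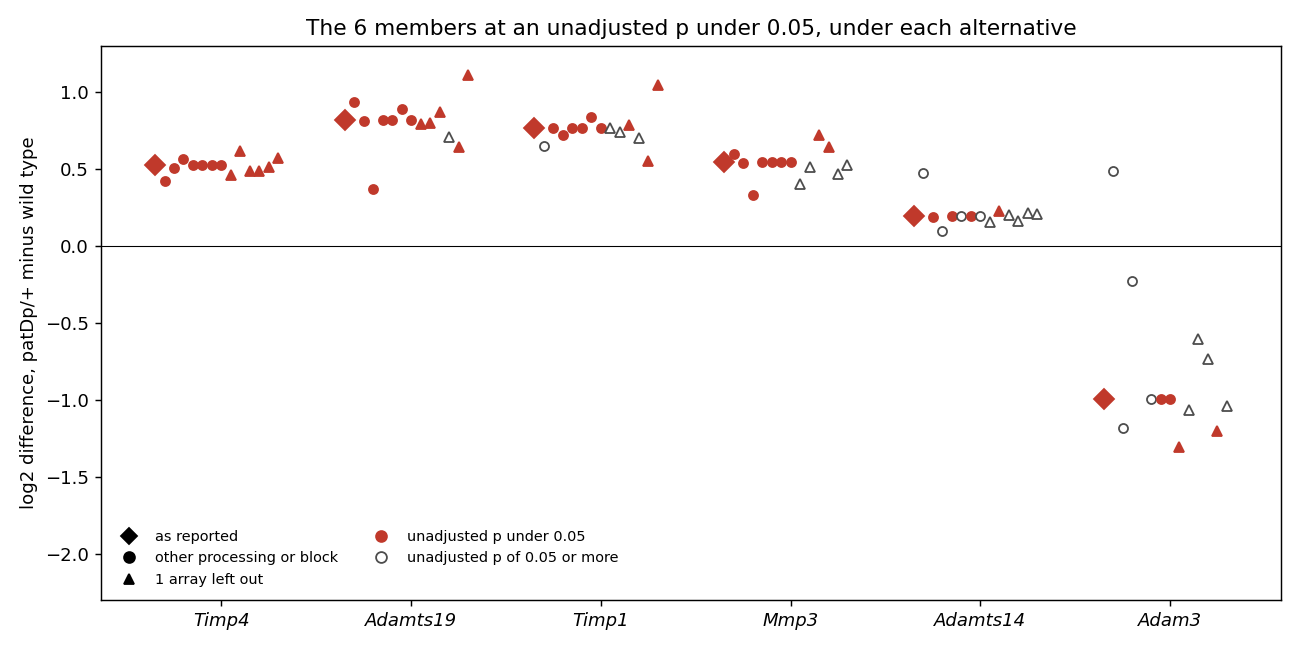
Log2 difference, patDp/+ minus wild type, of the 6 genes at an unadjusted p under 0.05, under each alternative. Diamonds are the main values, circles other processing or the slide block, triangles fits without 1 array, and red marks an unadjusted p under 0.05. Timp4 is red throughout, and Adam3 crosses 0 with normexp.

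On mm9 the probes of the leading genes lie on chromosome 6 (115196120 to 115196179) for Timp4, X (20451675 to 20451733) for Timp1, 9 (7455751 to 7455810) for Mmp3, 10 (60663111 to 60663170) for Adamts14 and 8 (25787727 to 25787786) for Adam3. At the filter, Adam3, Adam21 and Adam25 had exactly 3 arrays well above background. Adamts20 had 2 and was the nearest gene outside, with log2 values of -7.61, -5.25 and -5.21 in wild type and -5.00, -6.74 and -4.92 in patDp/+ fat. The other 23 genes left out had 0 or 1 such array. They include Adamts13, which cuts von Willebrand factor, the collagenases Mmp1a and Mmp8, and the placental cathepsins Ctsj, Ctsm, Ctsq and Ctsr. Of the 65 measured genes 59 were well above background on all 6 arrays.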

How the data were processed

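Expression was measured on 6 one-colour Agilent arrays, 1 for each mouse. Per the file headers, Feature Extraction 9.5.1.1 gave the deposited processed intensity, background-subtracted and detrended within an array. Agilent Feature Extraction 9.5 and limma 3.18.2 are named in the submitters' processing notes. The authors also deposited a log2 table with quantile normalized columns (medians 7.63), used as an alternative. For its background correction, the method is not given in the sources. Each array's values correlated more with their own column than with any other.

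Main values were log2 intensity less the array's own 75th percentile, computed without control probes, with outlier spots left out and replicate spots averaged. Probes well above background on at least 3 arrays were kept (27975 of 41174), and the brightest represented each gene. limma 3.58.1 (R 4.3.3) tested the group difference without covariates, two-sided, with Benjamini-Hochberg adjustment over all 19194 features and a threshold of 0.05. The fit was run on simulated independent values, with changes larger than any main difference of the measured proteases and inhibitors. That run therefore does not bear on differences of the size reported here. An exact permutation test of 3 against 3 arrays cannot give a p below 0.1, so none was used, and the number of arrays limits the precision.

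Genes and lists were chosen with earlier results of these data known. Genes given by array were those under the threshold, the 3 with the smallest p and the 1 with the largest difference in each family, and a fixed list of well-known members. Adam25, Adamts2, Adamts3, Adamts8, Adamts12 and Adamts18 were added after their values were seen. Names and mm9 probe positions are those of the scanner files, and exon or untranslated positions of probes were not analysed here. Alternatives were normexp (offset 50), quantile normalization, the deposited table, other probe filters, the mean of probes, the slide or replicate number as a block, and leaving out each array. Replicate numbers are shared by the groups and coincide with slides. Deviations of same-numbered arrays correlated at 0.11, -0.090 and -0.039, so the numbers were not taken to pair the mice.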

Additional observations from a re-analysis of the deposited data

How the results depend on the processing

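No feature passed adjustment under any alternative. Of 65 genes, 6 were under the unadjusted threshold in the main values (5 higher, 1 lower) and 3 with normexp (3 higher, 0 lower). The count of lower genes was 0 with quantile normalization, the deposited table or no filter on dim probes, and 2 with the mean of probes. With the slide as a block it was 2 (Adam3 and Adamts12), and as the replicate numbers coincide with the slides, the replicate block gave the same 2, with Adamts14 no longer among the 4 higher genes. Leaving out 1 array gave 4 to 11 genes (2 to 9 higher, 1 to 3 lower), with the most without patDp/+ replicate 3. Features under the threshold ranged from 755 to 1788, against 1075 in the main values. Genes whose groups did not overlap numbered 9 (8 higher, 1 lower), beside 5.23% of all features higher and 5.87% lower. When 1 array was left out they numbered 12 to 22 (9 to 18 higher, 2 to 5 lower). Fewer arrays are then compared and groups separate more readily, so those shares are not a comparison for these counts. No share over all features is given for these fits, so the rise from 9 is not read as a result. The count of lower genes without overlap was 0 with quantile normalization or the deposited table. The median difference of 0.07 was 0.14 with normexp and ranged from -0.0025 to 0.11 when 1 array was left out. Over all features the median was -0.01 in the main values and 0.07 with normexp. Adam3 was at 0.49 with normexp. The cause of these changes was not tested. Dim probes such as those of Adam3, Adam25, Adamts18 and Mmp13 are limited by their signal over background.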
